A study of Mus musculus with 47 samples.

Results

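The response of Zmynd8 cKO macrophages to IL-4 was described by setting the IL-4 library labelled Zmynd8 cKO against the untreated (NT) library of the same genotype, over all 51912 genes that the NT and IL-4 tables hold. These are 2 of the 47 samples of the series, and the 2 matching WT libraries were set beside them. All 4 libraries came from bone marrow-derived macrophages (BMDMs) of C57BL/6 mice, grown for 5 days in M-CSF at 20 ng/ml. The cKO mice carried floxed Zmynd8 alleles (exons 6 to 7) and Lyz2-Cre in heterozygous form, which deletes the exons in myeloid cells. The WT controls were Zmynd8 fl/fl littermates without Cre, so both genotypes carry the floxed alleles. By the methods of the study, IL-4 was given at 20 ng/ml for 6 hours. The labels mark the libraries only as M0 or M2, here called NT and IL-4, and their treatment field names vehicle and LPS but not IL-4. RNA of 3 biological replicates was mixed into each library, so each group is 1 library, no spread between replicates can be given and no difference below has a replicate check. The ages of the mice used for these cultures are not given in the sources used here.

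IL-4 is a type 2 cytokine that signals through its receptor and the kinases JAK1 and JAK3 to the transcription factor STAT6. In macrophages it induces alternative activation, marked in the mouse by Arg1 (arginase, which competes with nitric oxide synthase for arginine) and Chil3 (a chitinase-like lectin). ZMYND8 is a nuclear reader of histone marks that works with several chromatin regulators. Interferon-stimulated genes and the inflammatory genes driven by NF-kB form the other main programmes followed here.

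The promoters of 4 genes are shown because they carry motifs tied to these programmes. In 250 bases before to 50 bases after each start site (RefSeq, GRCm38.p6), the STAT6-type motif TTCNNNNGAA, which reads the same on both strands, was present in 6.95% of 32851 windows. The interferon-type motif GAAANNGAAA, searched on both strands, was present in 3.44%. Below, the 200 bases before the start site are given 5′ to 3′ on the strand of the gene, with the motif in capitals. Pdcd1lg2 (chr19:29410719-29410918, + strand) and Ccl17 (chr8:94810253-94810452, + strand) hold the first motif. Ifit1 (chr19:34640689-34640888, + strand) and Rsad2 (chr12:26456453-26456652, - strand) hold the second, as its reverse complement TTTCNNTTTC.
Pdcd1lg2: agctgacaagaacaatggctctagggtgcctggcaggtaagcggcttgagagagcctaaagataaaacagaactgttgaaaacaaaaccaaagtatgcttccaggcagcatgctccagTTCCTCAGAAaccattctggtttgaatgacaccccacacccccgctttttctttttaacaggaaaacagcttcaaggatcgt
Ccl17: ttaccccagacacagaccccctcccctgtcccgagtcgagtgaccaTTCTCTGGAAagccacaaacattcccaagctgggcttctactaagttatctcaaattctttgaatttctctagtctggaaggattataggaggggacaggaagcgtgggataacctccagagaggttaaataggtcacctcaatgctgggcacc
Ifit1: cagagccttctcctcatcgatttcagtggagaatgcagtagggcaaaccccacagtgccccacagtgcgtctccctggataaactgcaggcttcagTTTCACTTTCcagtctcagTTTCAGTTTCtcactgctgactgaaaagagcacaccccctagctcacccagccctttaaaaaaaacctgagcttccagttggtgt
Rsad2: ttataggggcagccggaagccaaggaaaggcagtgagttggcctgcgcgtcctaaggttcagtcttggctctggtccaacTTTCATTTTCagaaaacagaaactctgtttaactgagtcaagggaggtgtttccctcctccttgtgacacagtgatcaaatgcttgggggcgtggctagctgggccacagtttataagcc
The motif starts 82 bases before the start site in Pdcd1lg2 and 154 bases before it in Ccl17, starts at 104 and 85 bases before it in Ifit1, and at 120 bases before it in Rsad2. Of the alternative activation genes with a window, 6 of 20 held the STAT6-type motif (Ccl17, Cd36, Clec7a, Il1rn, Pdcd1lg2 and Retnla) and 0 of 20 the interferon-type motif. Of the interferon response genes, 16 of 29 held the interferon-type motif and 7 of 29 the STAT6-type motif. These counts take a gene where any of its windows matched. Counted by window, as for the shares over all windows, 8 of 31 alternative activation windows held the STAT6-type motif. Of the interferon response windows, 17 of 35 held the interferon-type motif and 7 of 35 the STAT6-type motif. Among IL-4 receptor and STAT6 signalling genes, 1 of 18 held each motif. A match describes these letters and is not a bound site.

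The 4 libraries held between 22597408 and 28386612 estimated counts. The NT and IL-4 libraries were deposited in 2 tables and carry separate blocks of sample numbers, so the table and the treatment cannot be told apart. A shift shared by both libraries of a table cancels in the difference between the cKO and WT responses. In this text a gene is called higher or lower at a fold of at least 2 on log2(CPM + 1), where CPM stands for counts scaled by the library total, among genes averaging 10 or more counts over the libraries compared. The 95% limits given for single genes are computed from the reads alone (exact Clopper-Pearson limits for a response, Woolf-type limits for a difference of responses) and cover counting error only. The transcript length implied by counts and TPM moved with the cKO response, whose median went from -0.19 in the quartile of shortest transcripts to 0.61 in the quartile of longest. The WT medians went from 0.09 to 0.24. The untreated cKO library stood apart in the same respect, with medians against untreated WT from 0.30 in the shortest quartile to -0.37 in the longest, while under IL-4 the medians went from 0.06 to -0.04. The part of this shift in the results below was not tested. A response centred within 20 bins of length is among the alternatives.

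**Figure D1:**
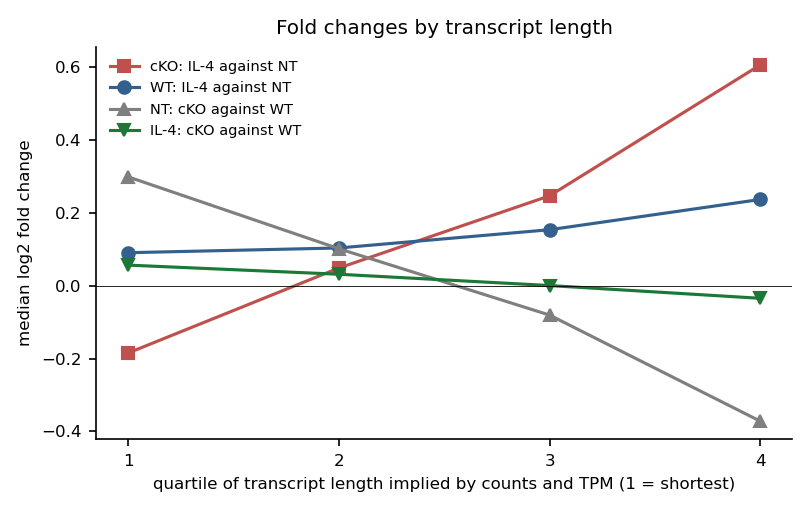
Median log2 fold change (vertical axis) in each quartile of transcript length (horizontal axis, shortest to longest) for the cKO response, the WT response and the cKO against WT difference before and after IL-4. The cKO response rises from -0.19 to 0.61 and the NT difference falls from 0.30 to -0.37, whereas the IL-4 difference stays between 0.06 and -0.04.

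The libraries were first checked against their labels. Zmynd8 (chromosome 2, positions 165784152 to 165899016 in GRCm38) had 81.5 CPM in the NT cKO library and 151 CPM in the IL-4 cKO library, against 87.1 and 128 CPM in WT. Its count covers the whole gene and not the deleted exons, so it does not check the deletion, and its cKO response was 0.88 (95% limits 0.80 to 0.96) against 0.55 (0.47 to 0.63) in WT. Lyz2 encodes lysozyme and is the locus that carries Cre. It had 7202 CPM in NT and 5245 CPM in IL-4 in the cKO libraries, against 10950 and 8941 CPM in WT, and was lower in cKO at both conditions. Lyz1, the neighbouring lysozyme paralog, had 1400 counts in NT and 3903 in IL-4 in cKO against 106 and 62 in WT, and the counts of so similar a pair are uncertain. Macrophage genes were abundant throughout. Csf1r, the M-CSF receptor, had 1666 CPM in NT cKO and 3847 CPM in IL-4 cKO, and the F4/80 gene Adgre1 had 872 and 3013 CPM.

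After IL-4, Arg1 and Chil3 were far higher in Zmynd8 cKO macrophages. Arg1 (chromosome 10, positions 24915221 to 24927484) had 0.620 CPM in NT and 1541 CPM in IL-4 cKO cells, and 0.763 and 1500 CPM in WT. Its cKO response was 9.89 (95% limits 9.56 to 10.17) and its WT response 9.73 (9.43 to 10.00). Both IL-4 libraries lay far above both NT libraries, and the difference of responses was 0.16 with limits of -0.24 to 0.56. Chil3 (chromosome 3, positions 106147554 to 106167564) went from 0.398 to 399 CPM in cKO and from 0.687 to 296 CPM in WT. Its response was 8.16 in cKO and 7.46 in WT, a difference of 0.70 (0.32 to 1.08). Per length, Arg1 reached 1784 TPM in IL-4 cKO cells and Chil3 437 TPM, so Arg1 was the more abundant of the pair. Of all genes tested in the cKO response, 1950 of 12966 were called higher (15.0%) and 790 lower (6.09%), and the background shares in WT were 10.0% higher and 6.19% lower of 13090. Over all genes the median response was 0.17 in cKO and 0.15 in WT. Scaling by TMM moved the cKO median by -0.19 and the split of calls from 71.2% higher to 57.7% higher, with 1503 higher and 1104 lower.

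Among the alternative activation genes, 19 of 31 tested members were called higher and 2 lower in cKO, with a median response of 1.69, and 21 of 32 were called higher and 3 lower in WT, with a median of 2.07. Beyond Arg1 and Chil3, the highest was Il4i1, a secreted phenylalanine oxidase of IL-4-treated cells. Il4i1 had 0.177 CPM in NT and 622 CPM in IL-4 cKO, and 0.382 and 600 CPM in WT, with responses of 9.05 and 8.77. Slc7a2, the cationic amino acid transporter that brings arginine into the cell, went from 7.26 to 1083 CPM in cKO and from 13.4 to 1069 CPM in WT. The cell adhesion gene Cdh1 went from 0.221 to 133 CPM in cKO and from 0.534 to 144 CPM in WT. Fn1, which encodes fibronectin, went from 3.05 to 269 CPM in cKO. Pdcd1lg2, a ligand of PD-1, had 3 counts in NT cKO and 58.2 CPM in IL-4 cKO, a ratio of 438 (95% limits 150 to 2127). In WT it had 0.0382 and 79.0 CPM. Other members called higher in cKO were Mrc1 (280 to 904 CPM), Clec7a (145 to 1404 CPM), Tgm2 (288 to 909 CPM), Egr2, Irf4, F13a1, Ptgs1, Cd83, Il27ra and Rnase2a. Ccl17, a chemokine of type 2 immunity, was at 0 counts in NT cKO and at 17.4 CPM after IL-4, at least 131.5-fold higher against a floor of 3 counts. Clec10a (11.8 to 1.15 CPM) and the interleukin-1 receptor antagonist Il1rn (519 to 202 CPM) were lower in cKO. With the NT WT library as baseline, 20 members were called higher. The cKO median was 2.66 with a pseudocount of 0.1 CPM or when genes averaging under 50 counts were dropped. Under TMM, 4 members were called lower.

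**Figure D2:**
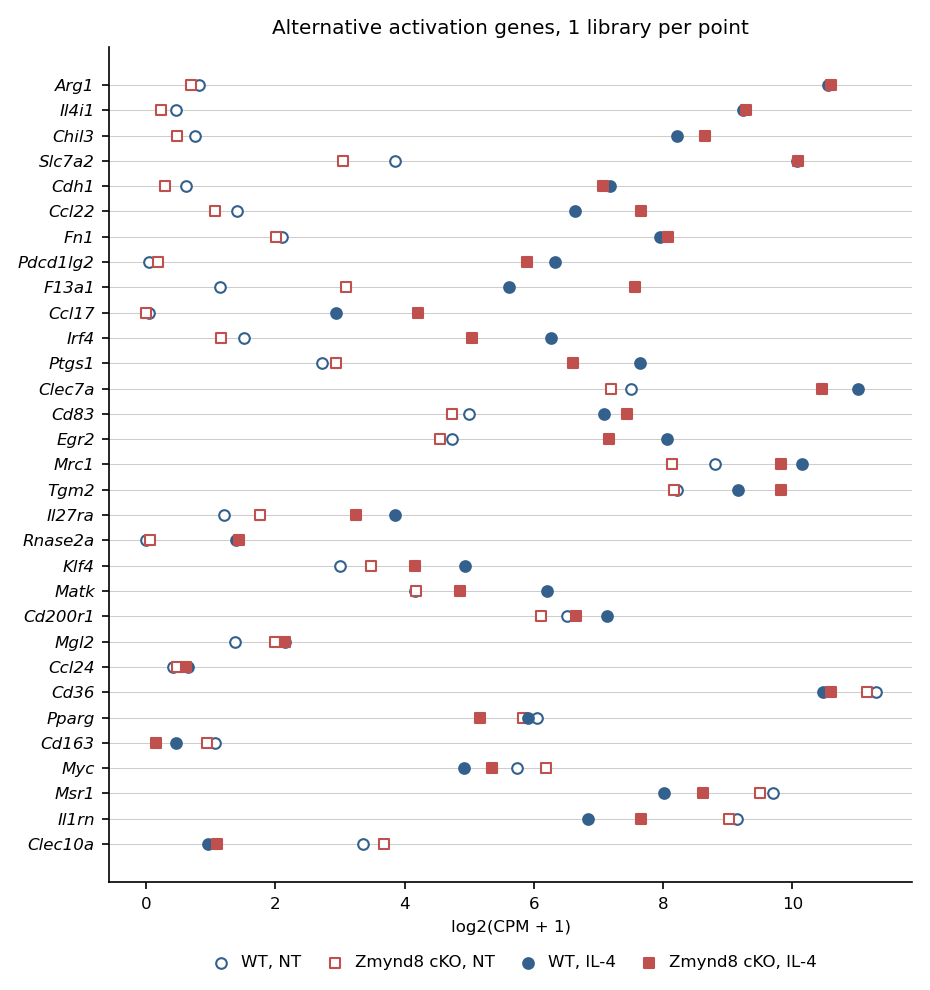
Levels of the 31 tested alternative activation genes, ordered by the cKO response, in the 4 libraries. The horizontal axis is log2(CPM + 1), open symbols are NT, filled symbols are IL-4, circles are WT and squares are cKO, and each point is 1 library. The filled symbols of Arg1, Il4i1, Chil3 and Slc7a2 lie far to the right of the open ones in both genotypes.

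The differences of response (cKO minus WT) were called more positive for 611 of 13019 genes (4.69%) and more negative for 195 (1.50%), at a difference of at least 1 on the log2 scale. Of the alternative activation genes, 5 were more negative and 2 more positive out of 32. Retnla, the resistin-like gene RELMalpha, was at 0 counts in both NT libraries, at 85 counts in IL-4 WT and at 5 counts in IL-4 cKO. The difference was -1.75 (-2.09 to -1.40). Retnla reached the minimum of 10 counts only through the IL-4 WT library and was not tested in cKO, so its call is a description. Ptgs1, which encodes cyclooxygenase 1, went from 6.68 to 96.9 CPM in cKO and from 5.61 to 199 CPM in WT, a difference of -1.25 (-1.53 to -0.96). The kinase gene Matk went from 17.2 to 28.1 CPM in cKO and from 16.9 to 73.1 CPM in WT, and was called higher in WT only. Klf4, a transcription factor of alternative activation, went from 10.1 to 16.8 CPM in cKO and from 7.02 to 29.7 CPM in WT, and Il27ra from 2.39 to 8.54 CPM against 1.30 to 13.5 CPM. In each of these the IL-4 WT library was the highest of the 4. Irf4, an IL-4-responsive factor, had 31.9 CPM after IL-4 in cKO and 75.8 CPM in WT, a difference of response of -0.86 (-1.28 to -0.45) and so short of the call. Ccl17 and Ccl22 were more positive in cKO. Ccl22, which draws the same T cells as Ccl17, had 1.11 and 201 CPM in cKO and 1.64 and 98.8 CPM in WT, with a difference of 1.34 (0.94 to 1.75).

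The IL-4 receptor and STAT6 signalling genes gave 6 members called higher and 0 lower of 18 tested, with 2 more positive and 1 more negative difference. The 6 were Jak2, Tyk2 and the feedback inhibitors Socs1, Socs2, Socs3 and Cish. Cish went from 0.487 to 52.0 CPM in cKO and from 0.229 to 61.3 CPM in WT. Socs3, which restrains gp130 signalling, went from 1.42 to 85.7 CPM in cKO and from 2.98 to 26.1 CPM in WT, with responses of 5.17 and 2.77, a difference of 2.39. Socs2 went from 0.398 to 10.9 CPM in cKO and from 0.382 to 26.2 CPM in WT, a difference of -1.21 (-1.62 to -0.80). Jak2 had 22.7 and 376 CPM in cKO and 42.4 and 308 CPM in WT. The members Il4ra, Jak1, Jak3 and Stat6 had cKO responses of 0.51, 0.50, 0.28 and -0.25.

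The interferon response genes had median responses of opposite sign in the genotypes. In cKO, 24 of 37 tested members were called higher and 0 lower, with a median response of 1.12. In WT, 0 were called higher and 18 lower, with a median of -0.98. The difference of responses was called more positive for 34 of 37, with a median of 2.28. Ifit1, an antiviral RNA-binding protein, had 43.2 CPM in NT cKO and 183 CPM in IL-4 cKO, but 194 and 54.3 CPM in WT. Ifit2 had 79.0 and 225 CPM in cKO and 698 and 97.9 CPM in WT. The radical SAM enzyme gene Rsad2 had 97.9 and 214 CPM in cKO and 621 and 72.3 CPM in WT. In all 3, the NT WT library was the highest of the 4, and the NT cKO library lay well below it.
The chemokine gene Cxcl10 had 8.67 and 97.8 CPM in cKO and 25.4 and 22.2 CPM in WT. Gbp2, an interferon-inducible GTPase, had 28.6 and 185 CPM in cKO and 99.5 and 68.3 CPM in WT. Others called higher in cKO were Ifit3, Ifit3b, Isg15, Irf7, Stat2, Oas2, Oasl1, Oasl2, Mx1, Usp18, Ifi44, Ifih1, Ddx58, Ifi205, Cmpk2, Zbp1, Trim30a and Gbp3. Ifnb1 had 0 counts in NT cKO and 1 in IL-4 cKO. Before IL-4, all 37 members were lower in the cKO than in the WT library, with a median of -1.53, and after IL-4, 36 of 37 were higher, with a median of 0.83. The cKO call therefore depends on its baseline: with the NT WT library in place of the NT cKO library, 2 members were called higher and 8 lower, with a median of -0.27. Centred by length, 23 were called higher, and under TMM 18. Genes of the mitochondrial genome, a share often read as a sign of RNA or cell quality, held 2.48% of the counts of the NT cKO library, against 1.79% in NT WT and 1.67% in each IL-4 library. The part of this share in the interferon calls was not tested.

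**Figure D3:**
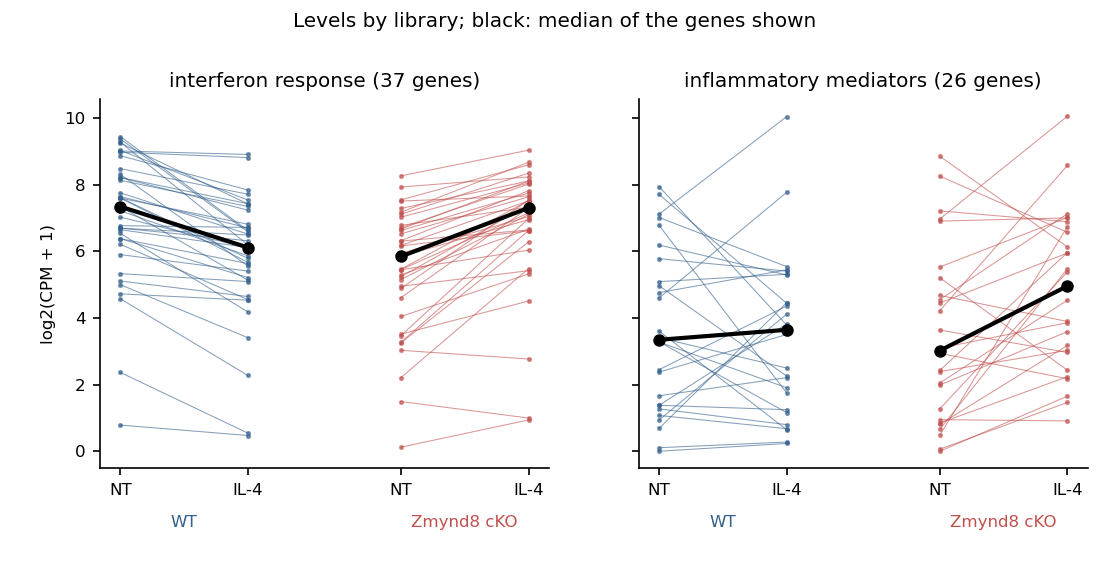
Levels of the interferon response genes (left) and inflammatory mediators (right) in NT and IL-4 libraries of WT (blue) and cKO (red), as log2(CPM + 1). Each thin line is 1 gene, and the black line is the median level of the genes shown. The median of the interferon genes slopes down in WT and up in cKO.

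Of the genes called in both responses, 1015 were higher in both and 505 lower in both. Another 26 were called higher in cKO and lower in WT, and 0 the opposite way. The genes called higher in both were 52.1% of those called higher in cKO and 77.2% of those called higher in WT. Of the 26 genes, 9 belonged to the interferon list (Ifit1, Ifit2, Ifit3, Ifit3b, Isg15, Mx1, Rsad2, Cmpk2 and Oasl2). The others, named after their values were seen, included Slfn3, Slfn4, Slfn5 and Slfn9 of the Schlafen family, Gbp7, Helz2 and Trim30d. Slfn4 had 289 counts in NT cKO and 3156 in IL-4 cKO, against 989 and 388 in WT.

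The inflammatory mediators were also more positive in cKO. In cKO, 15 of 26 tested members were called higher and 3 lower, with a median response of 1.44. In WT, 7 of 24 were called higher and 8 lower, with a median of -0.39. The difference was called more positive for 20 of 26 and more negative for 0. The neutrophil-attracting chemokine Cxcl3 went from 0.398 to 106 CPM in cKO and from 0.611 to 21.0 CPM in WT, a difference of 2.49 (2.09 to 2.88). Il1b went from 1.42 to 40.8 CPM in cKO and from 1.60 to 13.2 CPM in WT. Tnf, the tumour necrosis factor gene, had 45.3 and 129 CPM in cKO and 33.1 and 38.7 CPM in WT. In all 3 the IL-4 cKO library was the highest of the 4. Il6 was at 0 counts in NT cKO and at 56 counts after IL-4, at least 16.1-fold higher against a floor of 3 counts. Ccl5 went from 22.4 to 139 CPM in cKO and from 54.0 to 41.4 CPM in WT. The others called higher were Il1a, Il12b, Il27, Cxcl1, Cxcl2, Cxcl16, Ptgs2, Ptges, Cd40 and Cd86. Il6 and Il12b reached the minimum of 10 counts only through the IL-4 cKO library and were not tested in WT. Both count among the 26 members, and their calls are a description. Nos2, the inducible nitric oxide synthase, had 4.25 and 7.16 CPM in cKO and 8.74 and 1.23 CPM in WT, and was not called in cKO, but its difference was 2.76 (2.33 to 3.19). The monocyte chemokine genes Ccl2 (462 to 69.3 CPM) and Ccl7 and the scavenger receptor gene Marco (36.0 to 4.40 CPM) were lower in cKO. All 26 members were higher in the cKO than in the WT library after IL-4, with a median of 1.47. With the NT WT library as baseline, 15 were called higher and 5 lower.

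**Figure D4:**
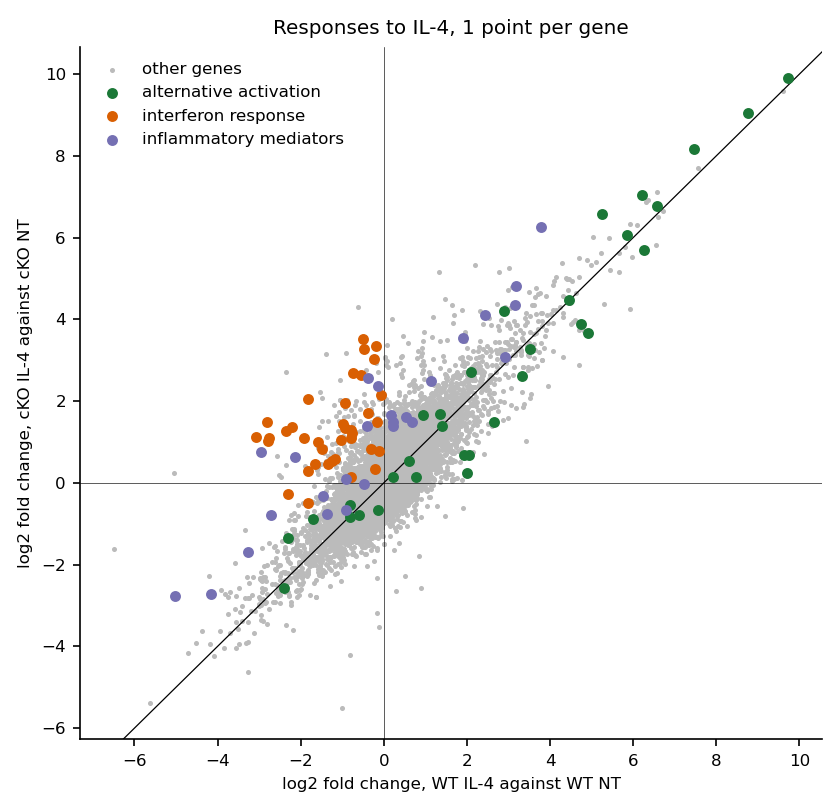
WT response (horizontal axis) against cKO response (vertical axis), as log2 fold changes of IL-4 against NT, 1 point per gene averaging 10 or more counts over the 4 libraries. The diagonal marks equal responses. Interferon genes (orange) lie to the left of 0 and mostly above it, and most inflammatory mediators (purple) lie above the diagonal.

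Most NF-kB factors and feedback genes were called higher in both genotypes. Of 18 members, 15 were called higher in cKO and 12 in WT, with 0 lower in either, and medians of 2.19 and 1.66. Icam1, an adhesion molecule, went from 38.9 to 610 CPM in cKO and from 38.1 to 423 CPM in WT. Nfkb1 went from 81.9 to 588 CPM in cKO and from 86.9 to 583 CPM in WT. The others called higher in cKO were Nfkb2, Rel, Relb, Nfkbia, Nfkbie, Nfkbiz, Tnfaip3, Tnip1, Tnip3, Bcl3, Traf1, Birc3 and Cflar. Of these, Nfkbiz, Tnfaip3, Traf1 and Cflar had more positive differences. Nfkbiz went from 6.28 to 37.7 CPM in cKO and from 8.09 to 13.3 CPM in WT. Of the immediate early genes, 5 of 22 were called higher (Fosl2, Junb, Ier3, Dusp2 and Nr4a3) and 8 lower (Fosb, Fosl1, Egr1, Ier5l, Dusp1, Dusp5, Nr4a1 and Klf2). Ier5l had 14.3 and 3.94 CPM in cKO and 11.2 and 13.3 CPM in WT, a difference of -1.87 (-2.20 to -1.53). Of ZMYND8 and its partners, 4 of 13 were called higher (Kdm5a, Kdm5c, Chd4 and Ep300), but 2 under TMM and 0 after centring by length or with the NT WT baseline.

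Genes of metabolism and presentation gave mixed counts. Over all tested genes, 15.0% were called higher and 6.09% lower in cKO, and several lists below lie near these shares. In arginine and polyamine metabolism, 5 of 14 were called higher (Arg1, Arg2, Slc7a2, Ass1 and Sat1) and 3 lower (Odc1, Srm and Azin1). Among MHC class II genes, 3 of 10 were called higher (Ciita, Cd74 and H2-DMa) and 0 lower. The count was 5 after centring by length or with a pseudocount of 0.1 CPM, but 2 under TMM. Among sterol synthesis genes, 0 of 19 were called higher and 3 lower, Sqle and Fdps among them. In cholesterol efflux, 4 of 12 were called higher (Abca1, Abcg1, Nr1h3 and Apoc2) and 3 lower (Scd1, Scd2 and Lpl). Abca1, the cholesterol exporter, went from 91.9 to 435 CPM in cKO and from 276 to 421 CPM in WT, a difference of 1.62 (1.54 to 1.70). In fatty acid oxidation, 2 of 13 were called higher (Acsl1 and Ppargc1b) and 1 lower (Acaa2), the latter not called with the NT WT baseline or after centring by length. These counts lie near the shares over all genes, and in WT 2 were called higher and 0 lower. In glycolysis, 1 of 15 was called higher (Hk2) and 4 lower (Tpi1, Gapdh, Pgk1 and Ldha). With the NT WT baseline 0 were lower, after centring by length 1, and under TMM 6. Of the cell cycle genes, 10 of 28 were called higher and 6 lower, but 6 higher and 9 lower under TMM. Mki67, Plk1 and Cdc20 were among the 10, and the 6 were Ccnd1, Pcna, Mcm2, Mcm4, Mcm5 and Mcm7. In matrix and coagulation, 6 of 16 were called higher (among them Fn1, F13a1, Mmp9, Mmp13 and Mmp14) and 5 lower (Mmp12, Mmp8, Plau, Plaur and Thbs1), and 5 had more positive differences. Of the housekeeping genes, 0 of 14 were called higher and 2 lower (Gapdh and Pgk1), with a median of -0.42. With the NT WT baseline 0 were lower and the median was -0.19. In macrophage identity, 5 of 19 entries were called higher (among them Csf1r, Adgre1, C1qa and C1qc) and 4 lower (Cd68, Fcgr1, Ctsb and Ctsd), and 3 were higher under TMM.

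**Figure D5:**
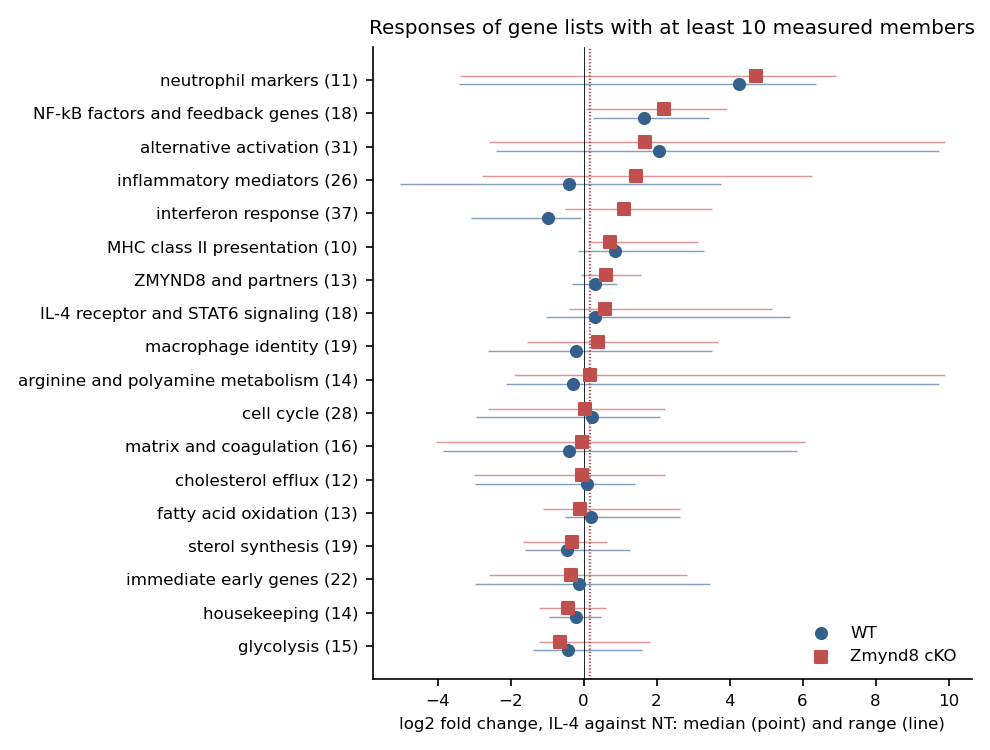
Median (point) and range (line) of the responses of the gene lists with at least 10 tested members, in WT (circles) and cKO (squares), on a log2 axis. Dotted lines mark the medians of all tested genes. Among the lists whose medians have opposite signs in the genotypes are the interferon response (1.12 in cKO, -0.98 in WT) and inflammatory mediators (1.44 and -0.39).

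Of the 10 lowest responses in cKO, 8 were called lower in WT too. Tmem154, a transmembrane protein gene, went from 129 to 2.10 CPM in cKO and from 112 to 1.30 CPM in WT, with responses of -5.38 and -5.62. Slc40a1, the iron exporter ferroportin, went from 99.3 to 4.29 CPM in cKO and from 112 to 5.64 CPM in WT. The macrophage elastase gene Mmp12 went from 2049 to 123 CPM in cKO and from 1610 to 111 CPM in WT. For each of these genes both NT libraries lay above both IL-4 libraries. The others of the 10 lowest were Gprc5b, Gpx3, Cdkn1c, Npas4, Klk1b11, Gm10163 and AC160411.2. AC160411.2, annotated as antisense, had 998 counts in NT cKO and 0 in IL-4 cKO, against 37 and 6 in WT, and Gm10163, a processed pseudogene, had 397 and 0 counts in cKO against 354 and 208 in WT. Hpgd, which inactivates prostaglandins, had 0.708 and 2.49 CPM in cKO and 0.649 and 16.7 CPM in WT, a difference of -2.39 (-2.88 to -1.91). The other more negative differences of that rank were Gm43731, Gm26527, Gm27177 and Tmem254a. The most positive were Slfn4, Ifit2, Rsad2, Ifi213, AC151730.1, B430305J03Rik, mt-Co3 and Gm10184. mt-Co3 had 3643 and 1357 counts in cKO and 2572 and 3 counts in WT, and how its reads were assigned in each library was not tested. Gm10184 had 0 and 5 counts in cKO and 846 and 0 in WT, so it differed in the untreated libraries. It passed the count filter only through the NT WT library and was not tested in cKO, so its rank is a description.

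Neutrophil markers were mostly called higher after IL-4. Of 11 tested members, 9 were called higher in cKO (S100a8, S100a9, Camp, Ngp, Ltf, Elane, Mpo, Prtn3 and Lcn2) and 1 lower (Mmp8), with a median of 4.72, or 5.98 with the members at 0 counts set at their bound. Without Mmp8, which was at 2630 counts in NT cKO, the summed level was 2.97 CPM in NT cKO and 564 CPM in IL-4 cKO, against 3.21 and 419 CPM in WT. S100a9 went from 12 to 4830 counts in cKO and from 13 to 3451 counts in WT. Mpo, the neutrophil granule enzyme, was at 0 counts in NT cKO and 31.6 CPM after IL-4, at least 237.8-fold higher, and Ltf likewise at least 604.0-fold. The neutrophil marker Ly6g had 0 counts in NT cKO and 2 in IL-4 cKO. Fewer cells of a type and less RNA per cell cannot be told apart in these mixed libraries. The part of these markers in the other results was not tested. In the other marker lists, mast cell, basophil and eosinophil markers gave 1 of 3 called higher (Prg2), dendritic cell markers 3 of 7 (Zbtb46, Batf3 and Fscn1), or 7 with a pseudocount of 0.1 CPM, lymphocyte markers 0 of 2 with 2 lower (Cd4 and Il7r), and stromal markers 2 of 4 (Pdgfrb and Pecam1). The dendritic markers Flt3, Clec9a and Ccr7 reached the minimum of 10 counts only through the IL-4 cKO library. So did the neutrophil markers at 0 counts in NT cKO. Such members could not be called lower, so these counts are a description. The levels of all 4 lists follow. The summed levels in NT and IL-4 cKO were 3.94 and 5.05 CPM for the mast cell list, 4.56 and 47.5 CPM for the dendritic list, 361 and 101.3 CPM for the lymphocyte list, nearly all Cd4 and Il7r, and 3.67 and 52.9 CPM for the stromal list, nearly all Pecam1 after IL-4. Cd3e had 0 counts in NT cKO. In both genotypes, 20 genes had 0 counts in NT and at least 100 in IL-4, and 1 the reverse. Among the 20 were the pseudogene Gm28439 (20140 counts in IL-4 cKO) and the small RNA gene Gm24798 (3591), both among the 10 highest cKO responses, for which reads shared with near-identical copies are uncertain. Flt1 and Ngp completed the 10 highest. Flt1, the VEGF receptor 1 gene, went from 0.752 to 364 CPM in cKO and from 1.91 to 545 CPM in WT.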

How the data were processed

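Per the labels and the methods, RNA of 3 biological replicates was mixed per library, sequenced, and aligned with TopHat to mm10, and the authors deposited estimated counts and TPM per gene in 1 table for NT and 1 for IL-4 (labels also name Bowtie 0.12.2 and CASAVA 1.4). The labels mark these libraries M0 and M2 and name vehicle and LPS as treatments, and IL-4 is named by the methods only. The methods name Cuffdiff for the comparisons, but which tool made the deposited counts, and whether it used strand, is not given in the sources used here. The deposited columns of fold changes and p-values were not used. Deposited estimated counts were rounded to whole numbers, the tables were joined on gene identifier (431 and 2 entries that are no gene were left out), and each library was divided by its column total. Deposited TPM served to compare levels per length and to imply transcript length. Calls and limits were made in Python 3.11.15 as given above, with edgeR 4.0.16 for TMM and an exact test at an assumed dispersion. With 1 library a side there is no replicate test. The steps were tested on simulated data.

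The named genes were Zmynd8, Arg1, Chil3 and Lyz2, the 10 highest and 10 lowest cKO responses and the 8 most positive and 8 most negative differences among called genes averaging 100 or more counts, and the called members of 22 lists with a few others. Members and lists were chosen with earlier results of these data known. Alternatives are given in the closing section. The LPS libraries were not used here. Some genes of the lists are not reported here by name.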

Additional observations from a re-analysis of the deposited data

Results flagged for a closer look

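Several results went opposite ways in the 2 genotypes after IL-4. The difference between genotypes was not tested, since each group is 1 library. In all, 26 genes were called higher in cKO and lower in WT. The median response of the interferon response genes was 1.12 in cKO and -0.98 in WT, and that of the inflammatory mediators was 1.44 in cKO and -0.39 in WT. The opposite sign of the interferon genes depends on the untreated libraries. With the NT WT library as baseline, their cKO median was -0.27, with 2 members called higher and 8 lower. On that baseline the inflammatory median was 1.27. Among the genes with the most positive differences of response, AC151730.1 differed by 5.05, Slfn4 by 4.54, Ifit2 by 4.32 and Rsad2 by 4.21 on the log2 scale. AC151730.1 is annotated as a processed pseudogene, for which reads shared with a near-identical copy are uncertain.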

How the results depend on the processing

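No paired analysis was possible because each group is 1 library, and no library could be left out. As reported, 1950 genes were called higher and 790 lower in cKO, 1314 and 810 in WT, and 611 and 195 differences were more positive and more negative. With a fold of at least 1.2 and an exact binomial test on the reads (adjusted p under 0.05), which compares libraries and not conditions, 5492 and 3230 were called in cKO and 5082 and 2852 in WT. Restricting to genes whose implied length agreed between the tables within 5% left 617 and 360 in cKO, 397 and 356 in WT, and 223 and 65 differences, out of 5538, 5535 and 5536 genes tested. In cKO, 63.2% of the calls were then higher, against 71.2% as reported, and the cause was not tested. It also left 5 of 9 alternative activation, 13 of 21 interferon, 6 of 13 inflammatory and 7 of 10 NF-kB members called higher in cKO, against 19 of 31, 24 of 37, 15 of 26 and 15 of 18, and an inflammatory median of 0.76 against 1.44. With a pseudocount of 0.1 CPM, 1988 genes were called higher in WT, and 1108 and 578 differences were called. With the NT WT library as baseline, 1278 genes were called higher after IL-4 in cKO with 2 interferon members among them. Without a low-count filter, with a mean of at least 50 counts, with TMM, with median-of-ratios, with an edgeR exact test at an assumed BCV of 0.2 (2168 and 871 in cKO, 1487 and 867 in WT) and with responses centred by length (added after seeing the data), each of the 6 counts stayed within 1.5 times where that setting was run. Under TMM the split of WT calls went from 61.9% to 50.3% higher.

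Of 199 named genes, 16 turned sign with the NT WT baseline and another 31 fell below the call, against 18 below it with TMM, 17 with median-of-ratios and 17 centred by length, with no sign change under those 3. The reversed values were -0.16 for AC151730.1, -0.36 for B430305J03Rik, -1.27 for Cmpk2, -0.13 for Ddx58, 0.58 for Gm43731, -0.087 for Ifit1, -1.63 for Ifit2, -1.32 for Ifit3, -1.22 for Ifit3b, -0.30 for Irf7, -0.65 for Isg15, -0.68 for Mx1, -0.27 for Oasl2, -1.53 for Rsad2, -0.20 for Stat2 and -0.11 for Trim30a. These genes, apart from Gm43731, were lower in NT cKO than in NT WT, and the cause was not tested. Genes averaging under 10 counts were left out of the calls, and single ones are given by their counts only.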
